A study of Mus musculus with 4 samples.

Results

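WT interneurons of hippocampus and of cortex were compared within preparations, in juvenile mice of postnatal day 18 to 20. The cells are 6602 of the 19068 cell barcodes of WT mice, 4459 from cortex and 2143 from hippocampus, and the series holds 26987 barcodes in all. They were chosen as cells with 200 to 6000 genes, under 30% mitochondrial UMIs (transcript molecules counted by their barcode), at least 3 UMIs of Gad1 and Gad2 together and 0 UMIs of the oligodendrocyte gene Mog. Within them, 3295 Sst-high cells (Sst at 3000 or more counts per 1000000 UMIs of the cell, or CPM) were taken apart, since the mix of classes differs between the regions, and of the other 3307 cells 974 were Pvalb-high (Pvalb at 500 CPM or more). The study asked what the NMDA receptor subunit gene Grin1 does in interneurons that arise in the medial ganglionic eminence (MGE).

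All mice carried Nkx2.1-Cre and the Ai14 TdTomato reporter. The WT mice had unfloxed Grin1 and the Grin1-null mice, used here for 1 comparison, had floxed Grin1. Nkx2.1-Cre marks MGE-derived interneurons and also part of the glia and other cells of that lineage. Acute slices of frontal cortex and of hippocampus were dissociated, TdTomato cells were sorted, and each library pools several mice, which are not told apart. Both sexes were used over the whole experiment, and the sexes in each library are not given in the sources used here. There were 3 WT libraries per region, replicate 1 made with version 2 and replicates 2 and 3 with version 3 of the 10x Genomics kit. Values are listed for replicates 1, 2 and 3 in that order throughout. The libraries hold 744, 1587 and 2128 interneurons in cortex and 440, 995 and 708 in hippocampus. Their summed UMIs were 6231749, 8998909 and 20224702 in cortex and 2542991, 2659917 and 7081997 in hippocampus, and the median UMIs per interneuron were 7948.5, 4965 and 8888 in cortex and 5516, 2268 and 9933 in hippocampus. Hippocampal replicate 2 had the lowest median per cell.

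Interneurons of the MGE are the source of somatostatin (Sst) cells, which contact dendrites, and of parvalbumin (Pvalb) cells, which contact cell bodies and axon initial segments. In the hippocampus the MGE also gives part of the neurogliaform and ivy cells, many of which make neuropeptide Y and nitric oxide. Long-range Sst cells with Chodl and Nos1 are known from the cortex.

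The cells held markers of the MGE lineage. In all interneurons Lhx6, a transcription factor of that lineage, was at 72.4, 127 and 106 in cortex and 149, 130.1 and 156 in hippocampus unscaled CPM, and Nkx2-1, the factor whose Cre line was used, at 12.2, 10.3 and 6.87 in cortex and 31.9, 26.7 and 35.6 in hippocampus. The 8 markers of the MGE list found in the files, of 9 listed, were each detected in each of the 6 libraries, but they include Gad1 and Gad2, which chose the cells and which GABA neurons of other lineages also make. Tomato transcripts were found in 95.3, 93.2 and 97.7% in cortex and 88.9, 67.3 and 94.4% in hippocampus of interneurons. Hippocampal replicate 2 had the lowest share, but not among Sst-high cells each thinned to 1000 UMIs, where the shares were 38.9, 57.6 and 51% in cortex and 35.1, 38.5 and 62.6% in hippocampus. Oligodendrocyte-like cells (Mog at 3 or more UMIs and 0 UMIs of Gad1 and Gad2) also held Tomato, in 42, 38.6 and 45% in cortex and 44.1, 37.9 and 71.8% in hippocampus, and so gave no background for this gene.

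Pairs were formed by replicate number. Any 2 WT libraries shared 0 to 12 cell barcodes, and their interneurons 0 to 2. Across 11299 genes, the deviations of log2 CPM in Sst-high cells from the mean of the region correlated at 0.64, 0.57 and 0.35 between the cortical and hippocampal libraries of 1 number, and at -0.58 to 0.20 between libraries of other numbers (Pearson; genes are not independent replicates). From here on, CPM of the summed UMIs are TMM-scaled where no other scale is named, and unscaled CPM are not. The pairs of 1 number thus correlated more than any other pair. The libraries of replicate 1 share a kit version, and those of replicate 2 had the lowest median UMIs of their region. The part of kit and depth in these correlations was not tested. Deviations from a mean of 3 libraries also tie the correlations to each other. Xist, made from the inactive X of females, was at 398, 0 and 23.1 in cortex and 538, 0 and 280.4 in hippocampus unscaled CPM, and the Y-linked Ddx3y at 19.7, 92.2 and 56.5 in cortex and 57, 114 and 44.6 in hippocampus. Replicate 2 held no Xist in either region, in replicate 3 the hippocampus had more Xist than the cortex, and in replicate 1 more Ddx3y, so whether both libraries of a pair came from the same mice cannot be told. Neither gene passed a region test in Sst-high cells.

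Sst-high cells made up 60.5, 54.4 and 58.6% in cortex and 39.5, 34 and 31.4% in hippocampus of the interneurons. All cortical shares lay above all hippocampal ones. The means were 57.8 ± 3.13% and 35.0 ± 4.18% (SD, n = 3 libraries each), a mean paired difference of -22.9 points with a two-sided exact permutation p of 0.25, the smallest that 3 pairs allow. Pvalb-high cells were 18.5, 19.5 and 18.4% in cortex and 2.5, 10.5 and 2.82% in hippocampus, where hippocampal replicate 2 stood above the other 2 but under the cortex. That difference was -13.6 points (18.8 ± 0.625% and 5.26 ± 4.50%, SD, n = 3 each, exact p = 0.25). In cells below the Sst limit median UMIs were 7357, 4438.5 and 8726.5 in cortex and 5140.5, 1993 and 8942.5 in hippocampus. Fewer Pvalb UMIs thus reach the Pvalb limit in hippocampal replicate 2, and the part of depth in its share was not tested. The Sst limit divides a thin stretch of cells, with 115 cells at 2500 to 3000 CPM (median 17 Sst UMIs) and 94 at 3000 to 3500 (median 20).

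**Figure D1:**
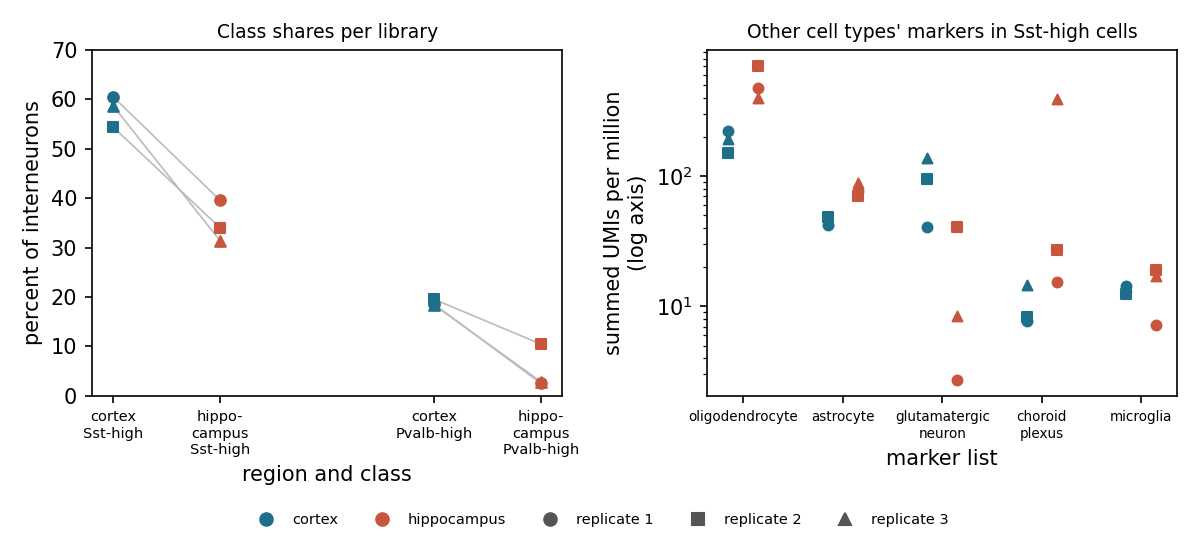
Left, the percent of WT interneurons that were Sst-high or Pvalb-high in each library, with grey lines between the cortical and hippocampal libraries of 1 replicate. Right, the summed unscaled CPM of marker lists of other cell types in Sst-high cells on a log axis. Shares of both classes were lower in hippocampus in all 3 pairs, and oligodendrocyte markers were higher there.

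Markers of other cell types were present at low levels in the Sst-high sums. The oligodendrocyte list (10 of 10 detected) summed to 223, 151 and 192 in cortex and 479, 706 and 396 in hippocampus unscaled CPM. All hippocampal libraries lay above all cortical ones, and Mobp, Cnp and Mbp passed the region test as higher in hippocampus. Astrocyte markers (8 of 8, Slc1a2 most abundant) were at 42.2, 48.4 and 45.6 in cortex and 77, 69.9 and 89.3 in hippocampus, with Aldoc higher in hippocampus. Choroid plexus markers (6 of 6) reached 7.74, 8.28 and 14.6 in cortex and 15.4, 27.2 and 389 in hippocampus, and in hippocampal replicate 3 most of it was Ttr at 321. Enpp2 of that list was higher in hippocampus.

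The glutamatergic list (9 of 9 detected in some library) gave 40.9, 95.5 and 138 in cortex and 2.72, 40.8 and 8.39 in hippocampus unscaled CPM, with Nrgn the most abundant, while the defining Slc17a7 had 0.25, 1.29 and 0.746 in cortex and 0, 1.81 and 0 in hippocampus. Slc17a6, Neurod6 and Fezf2 were at 0 in the hippocampal Sst-high cells. Microglial markers (8 of 8) were at 14.2, 12.5 and 14.2 in cortex and 7.24, 19.1 and 17.2 in hippocampus, with C1qb, P2ry12, Tmem119 and Csf1r at 0 in hippocampus. Precursors of oligodendrocytes (7 of 7, Vcan most abundant) gave 8.74, 8.65 and 12.2 in cortex and 13.6, 88 and 22.9 in hippocampus, and endothelial and mural markers (6 of 7, Ly6c1 at 0) 2.0, 13.8 and 2.57 in cortex and 1.81, 0.907 and 1.53 in hippocampus. The cholinergic or striatal list (5 of the 7 in the files, of 8 listed, Rgs9 most abundant) gave 46.2, 77.9 and 70.1 in cortex and 24.4, 37.2 and 41.6 in hippocampus, all hippocampal sums under all cortical ones, with Slc5a7 called as lower and Chat and Slc18a3 at 0 in all 6 libraries. Markers of interneurons from the caudal eminence (8 of 8, Cnr1 most abundant) were at 383, 498 and 649 in cortex and 408, 299 and 513 in hippocampus, with Vip at 0 in hippocampus. The part of these other cells in the gene results was not tested beyond the values given with them.

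In Sst-high cells 167 of 11299 genes differed between the regions (edgeR with the replicate as a block, passing where the adjusted p is under 0.01 and the natural-log change 0.1 or more), which is 1.48%. Of these, 90 were higher in hippocampus (0.797% of the genes tested) and 77 lower (0.681%). The 167 moved 1 way in all 3 pairs, and for 155 the 3 libraries of 1 region lay above the 3 of the other, as they did for 12.5% of all genes tested. The median log2 difference over the genes tested was 0.01. Sst-high cells hold several subclasses, whose mix cannot be told apart from levels per cell in these sums. The fit with no replicate block called 6 genes. Aga, Ctsc, Sfrp2 and Tenm2 were the ones of the 50 genes named for Sst-high cells that passed without it. Sums without cells that held a UMI of Mbp or Slc17a7, an alternative chosen after the data were seen, gave 138 genes, of which 121 were among the 167, and sums of cells thinned to 1000 UMIs gave 52.

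Of the genes that rose in the hippocampus, some encode synaptic organizers, matrix proteins or guidance receptors. Tenm2 (ENSMUSG00000049336, chromosome 11, 36006656 to 37235964 on mm10), a teneurin that binds latrophilins across the synapse, was at 28.7, 34.6 and 35.3 CPM in cortex and 187, 188 and 178 CPM in hippocampus. The libraries of a region differed little and the regions lay far apart (log2 difference 2.48 ± 0.20 (SE, n = 3 pairs), adjusted p = 1.42e-05). Its relative Tenm3 was at 13.8, 18.1 and 21.5 CPM in cortex and 53.3, 100 and 80.7 CPM in hippocampus, again without overlap (log2 difference 2.1 ± 0.21 (SE, n = 3 pairs), adjusted p = 7.39e-05). Hapln1 (ENSMUSG00000021613, chromosome 13, 89539796 to 89611652), the link protein that ties hyaluronan to proteoglycans of the matrix, was at 4.44, 13.1 and 10.8 CPM in cortex and 36.4, 136 and 73.4 CPM in hippocampus. Replicate 2 was highest in both regions, and each hippocampal library was above each cortical one (log2 difference 3.05 ± 0.23 (SE, n = 3 pairs), adjusted p = 1.41e-05).

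Nrp2 (ENSMUSG00000025969, chromosome 1, 62703285 to 62818695), a co-receptor of class 3 semaphorins, had 4.44, 6.84 and 7.35 CPM in cortex and 52.4, 44.9 and 22.3 CPM in hippocampus, with hippocampal replicate 3 the lowest of its region but above the cortex (log2 difference 2.50 ± 0.32 (SE, n = 3 pairs), adjusted p = 0.000523). Its relative Nrp1 was scarcer, at 3.13, 2.03 and 1.35 CPM in cortex and 26.7, 6.54 and 9.13 CPM in hippocampus (log2 difference 2.61 ± 0.38 (SE, n = 3 pairs), adjusted p = 0.00117). Unc5d, a netrin receptor, was at 43.6, 78 and 38.8 CPM in cortex and 352, 148 and 144 CPM in hippocampus, with hippocampal replicate 1 above the other hippocampal values (log2 difference 1.94 ± 0.30 (SE, n = 3 pairs), adjusted p = 0.00203). Other guidance genes fell. Ntn1, a netrin, was at 9.14, 30.5 and 11 CPM in cortex and 0, 0.935 and 1.46 CPM in hippocampus (-3.85 on the log2 scale), and Sema3e, a semaphorin, at 53.5, 52.7 and 47.6 CPM in cortex and 14.2, 12.2 and 9.5 CPM in hippocampus (-2.14), each with all hippocampal values under the cortical ones. Of 43 guidance genes tested among 52 listed, 5 rose and 2 fell, with a median log2 difference of 0.27. Synaptic organizers had 52 tested of 57, with 5 up, 1 down and a median of 0.27, and in this list Clstn2 fell (-1.77, adjusted p = 0.00722, and 0.0105 without replicate 2).

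Aga (ENSMUSG00000031521, chromosome 8, 53511727 to 53523421), which encodes a lysosomal enzyme that splits asparagine from its linked sugar, rose most among the genes with at least 30 CPM in the higher region. It was at 2.87, 4.81 and 5.41 CPM in cortex and 169.7, 80.4 and 66.1 CPM in hippocampus, with replicate 1 the highest in hippocampus (log2 difference 4.33 ± 0.33 (SE, n = 3 pairs), adjusted p = 1.41e-05). Oligodendrocyte-like cells also held Aga, at 44.9, 28 and 53.9 unscaled CPM in cortex and 29.3, 21.9 and 54.6 unscaled CPM in hippocampus. By cells, chosen for display after its values were seen, Aga had a UMI in 2.22, 3.01 and 4.81% in cortex and 33.9, 8.88 and 24.3% in hippocampus of Sst-high cells, whose median UMIs were 8342.5, 5416 and 8936.5 in cortex and 5919, 2768 and 11682 in hippocampus. In oligodendrocyte-like cells, with median UMIs of 6334, 2803 and 6344 in cortex and 4823.5, 1934 and 7826.5 in hippocampus, these shares were 24.4, 7.86 and 28.7% in cortex and 13.7, 4.81 and 34.6% in hippocampus. Thinned to 1000 UMIs per cell they were 0.222, 0.698 and 0.646% in cortex and 13.2, 4.92 and 4.5% in hippocampus of Sst-high cells, and 3.89, 3.23 and 6.38% in cortex and 2.7, 2.3 and 5.29% in hippocampus of oligodendrocyte-like cells. As these cells hold Aga themselves, they give no background for it, and the source of its UMIs was not tested.

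Ctsc, the lysosomal protease cathepsin C, was scarce but apart, at 0.261, 0.37 and 0.338 CPM in cortex and 16, 13.1 and 9.5 CPM in hippocampus (log2 difference 5.03 ± 0.48 (SE, n = 3 pairs), adjusted p = 5.59e-05). Of 32 lysosomal genes tested among 35 listed, Aga and Ctsc were the 2 that rose and none fell, at a median of -0.01. Tenm2 was detected, thinned, in 2.89, 3.84 and 2.82% in cortex and 10.9, 15.1 and 17.1% in hippocampus of Sst-high cells and in 0, 0.17 and 0.765% in cortex and 0.261, 0.605 and 0.417% in hippocampus of oligodendrocyte-like cells (unthinned 17.6, 17.6 and 22.7% in cortex and 58, 35.8 and 65.3% in hippocampus, and 1.06, 0.429 and 1.72% in cortex and 0.87, 0.895 and 1.92% in hippocampus). Here each Sst-high share was above background and the regions did not overlap.

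Other genes also rose. Necab1, a neuronal calcium-binding protein, was at 7.57, 17.9 and 16.2 CPM in cortex and 102, 81.3 and 61 CPM in hippocampus (log2 difference 2.51 ± 0.29 (SE, n = 3 pairs), adjusted p = 0.000239). Igfbp4, which binds insulin-like growth factors, was at 47.8, 38.8 and 43 CPM in cortex and 349, 165 and 159 CPM in hippocampus, highest in hippocampal replicate 1 (log2 difference 2.27 ± 0.22 (SE, n = 3 pairs), adjusted p = 5.59e-05). Id2, an inhibitor of basic helix-loop-helix transcription factors, was at 11.2, 9.24 and 7.69 CPM in cortex and 56, 34.6 and 27.4 CPM in hippocampus (log2 difference 2.01 ± 0.24 (SE, n = 3 pairs), adjusted p = 0.000256). None of the 3 overlapped between regions. Lmo1, a LIM-domain cofactor of transcription, was at 22.7, 8.69 and 19.1 CPM in cortex and 90.6, 39.3 and 123 CPM in hippocampus (2.32 on the log2 scale), and the secreted Fam19a2 at 18.5, 15.3 and 12.7 CPM in cortex and 126, 39.3 and 81.1 CPM in hippocampus (2.33). Eps8, which caps actin filaments, was at 2.35, 9.79 and 13.6 CPM in cortex and 18.7, 44.9 and 34.3 CPM in hippocampus (1.94), with cortical replicate 3 just under hippocampal replicate 1.

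The neuropeptide genes that passed were lower in hippocampus. Pdyn (ENSMUSG00000027400, chromosome 2, 129686565 to 129699844), the precursor of dynorphins, was at 127, 112 and 115 CPM in cortex and 0, 15 and 2.92 CPM in hippocampus. Cortical libraries were alike, and the hippocampus held 0, 16 and 8 UMIs (log2 difference -4.54 ± 0.47 (SE, n = 3 pairs), adjusted p = 8.35e-05). Thinned, 7.78, 6.05 and 7.51% in cortex and 0, 0.923 and 0% in hippocampus of Sst-high cells had Pdyn, and 0% of oligodendrocyte-like cells of each library (unthinned 19.3, 17.7 and 22.4% in cortex and 0, 2.66 and 2.25% in hippocampus, and 0.353, 0.286 and 1.23% in cortex and 0, 0 and 0% in hippocampus). Npy (ENSMUSG00000029819, chromosome 6, 49822710 to 49829507) was at 10163, 18292 and 10077.5 CPM in cortex and 1264, 6306 and 1600.4 CPM in hippocampus, lower in hippocampus in each pair and highest in replicate 2 of both regions (log2 difference -2.40 ± 0.23 (SE, n = 3 pairs), adjusted p = 5.59e-05). Of 19 neuropeptide genes tested among 25 listed, 0 rose and 6 fell (Pdyn, Nts, Npy, Tac2, Penk and Crh), with a median log2 difference of -0.64. Nts was at 10.7, 11.3 and 17.1 CPM in cortex and 1.78, 1.87 and 1.83 CPM in hippocampus (-2.92).

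Markers of the long-range Sst cells were also lower. Chodl was at 54.6, 113 and 41.7 CPM in cortex and 0, 17.8 and 2.19 CPM in hippocampus (log2 difference -3.67 ± 0.41 (SE, n = 3 pairs), adjusted p = 0.000178), and Nos1, the neuronal nitric oxide synthase, at 268, 812 and 224 CPM in cortex and 24.9, 216 and 33.6 CPM in hippocampus (log2 difference -2.61 ± 0.26 (SE, n = 3 pairs), adjusted p = 5.59e-05). Tacr1, the substance P receptor, had 17.2, 52.5 and 15.4 CPM in cortex and 0.889, 7.48 and 1.46 CPM in hippocampus (-3.20 on the log2 scale). For all 3 the cortex lay above the hippocampus, with replicate 2 the highest in each region. Cells with a Chodl UMI or at least 2 Nos1 UMIs were 10, 18.3 and 7.37% in cortex and 2.87, 4.44 and 7.21% in hippocampus of Sst-high cells, so cortical replicate 3 and hippocampal replicate 3 were alike. Without these cells, an alternative chosen after the data were seen, 207 genes passed, 136 of them among the 167. Npy then had a log2 difference of -1.12 and Pdyn one of -4.71. Among 27 Sst subclass markers, all tested, 0 rose and 10 fell (median -1.06). The mix of Sst subclasses and the levels per cell cannot be told apart for these genes or the neuropeptides.

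Pcp4, a small regulator of calmodulin, was at 1501, 1417 and 692 CPM in cortex and 50.7, 540.3 and 83.3 CPM in hippocampus, and hippocampal replicate 2 was the nearest to the cortex (log2 difference -3.01 ± 0.45 (SE, n = 3 pairs), adjusted p = 0.0015). Nrgn, which also binds calmodulin, was at 41.3, 91.1 and 138 CPM in cortex and 1.78, 39.3 and 6.94 CPM in hippocampus, with replicate 2 of the hippocampus just under replicate 1 of the cortex (log2 difference -2.88 ± 0.46 (SE, n = 3 pairs), adjusted p = 0.00243). In the cells that were not interneurons Nrgn was at 792, 1515 and 892 in cortex and 13.2, 30.5 and 233 in hippocampus unscaled CPM, so it was lower there too in the hippocampal libraries, and its part in the Sst-high value was not tested. Npnt, a matrix ligand of integrins, was at 25.6, 30.5 and 64.8 CPM in cortex and 0, 5.61 and 12.1 CPM in hippocampus (-2.76), and Rprml at 69, 39.5 and 76.4 CPM in cortex and 1.78, 14 and 11.3 CPM in hippocampus (-2.75). Unc13c, a vesicle priming protein, was at 75.5, 67.1 and 108 CPM in cortex and 7.11, 22.4 and 20.8 CPM in hippocampus (-2.34). Galnt14, an enzyme of O-linked glycosylation, was at 63.7, 53.8 and 69.8 CPM in cortex and 8.89, 12.2 and 16.1 CPM in hippocampus (-2.31), and Arpp21 at 50.1, 30.1 and 28.8 CPM in cortex and 18.7, 6.54 and 3.29 CPM in hippocampus (-2.17). In the cells that were not interneurons all 7 genes of this paragraph were lower in each hippocampal library than in any cortical one, Arpp21 at 186, 203 and 145 in cortex and 11.6, 21.4 and 42.9 in hippocampus, Rprml at 62.1, 168 and 127 in cortex and 1.25, 1.96 and 22.8 in hippocampus and Pcp4 at 557, 1015 and 581 in cortex and 30.1, 44.1 and 117 in hippocampus unscaled CPM, and their part in the Sst-high values was not tested. None of these 7 genes overlapped between the regions.

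**Figure D2:**
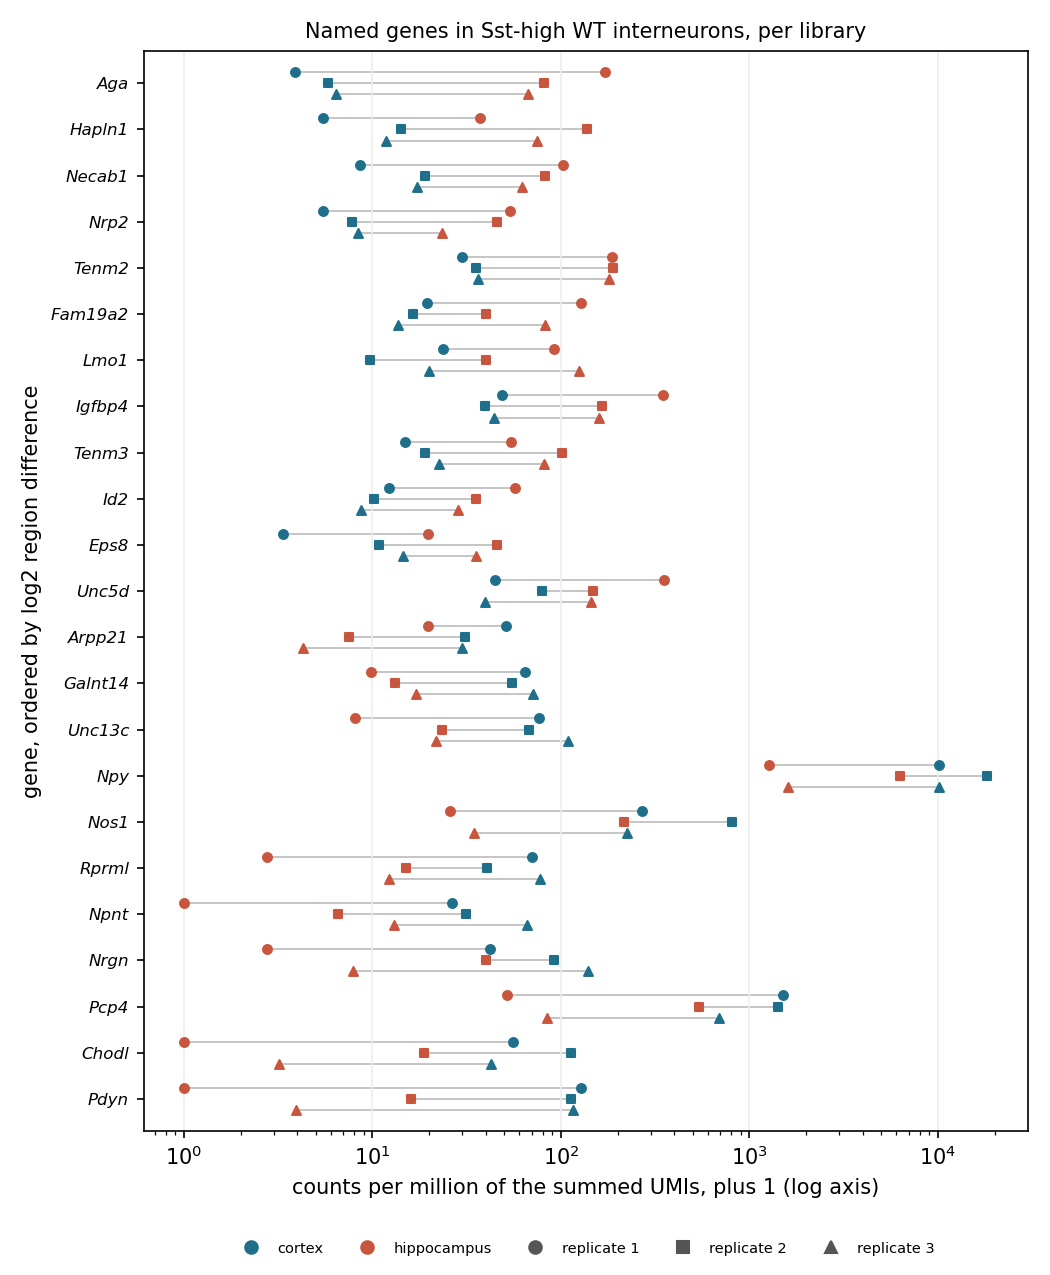
CPM plus 1 of 12 genes with large rises and 11 with large falls in Sst-high cells, on a log axis, for the 3 cortical (blue) and 3 hippocampal (red) WT libraries. Lines join the libraries of 1 replicate. For each gene the 3 values of 1 region lie above the 3 of the other, by the way the genes were chosen.

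Some receptor and channel genes also passed. Gria1, an AMPA receptor subunit, was at 296, 454 and 408 CPM in cortex and 820.3, 748 and 743 CPM in hippocampus (1.02, adjusted p = 0.00755, and 0.136 without replicate 1), and Grm5, a metabotropic glutamate receptor, at 149, 146 and 141 CPM in cortex and 531, 257 and 263 CPM in hippocampus (1.18, adjusted p = 0.00688, and 0.121 without replicate 1). They are the 2 rises among 34 glutamate receptor genes tested of 37, with 0 falls and a median of 0.11. In the GABA list (21 of 22 tested, median 0.11) the delta subunit Gabrd fell, at 29.3, 27.4 and 49.6 CPM in cortex and 3.55, 6.54 and 14.6 CPM in hippocampus (-2.08). Regions did not overlap for any of these 3 genes. Among potassium and HCN channel genes (49 of 55 tested, 1 up, 3 down, median -0.08) Kcnmb2 rose (1.42 (adjusted p = 0.000611)) and Kcnip4 (-1.91 (adjusted p = 0.000239)) and Kcnip1 (-1.64 (adjusted p = 0.000327)) fell. Of 32 sodium and calcium channel genes tested of 36, edgeR called 0 (median 0.07). The whole Sst-high table had 1517 genes at an unadjusted p under 0.05, and DESeq2 called 176 genes.

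Of 47 transcription factor genes tested among 64 listed, 3 rose (Id2, Tshz1 and Nr2f1) and 5 fell (Id4, Etv1, Sox6, Bcl11a and Bcl11b), with a median of -0.20. Tshz1, a zinc finger factor, was at 6.79, 10.2 and 6.93 CPM in cortex and 16.9, 30.8 and 32.1 CPM in hippocampus, and Id4, a relative of Id2, at 11.5, 14 and 22.4 CPM in cortex and 0.889, 4.67 and 3.29 CPM in hippocampus, each without overlap. Etv1, an ETS factor, was at 10.7, 13.5 and 12.9 CPM in cortex and 2.67, 4.67 and 1.46 CPM in hippocampus (-2.29, adjusted p = 0.00553, and 0.0553 without replicate 3). Growth factor and Wnt genes (40 of 67 tested) had 3 rises and 2 falls at a median of 0.24, with Fgf10 at 1.04, 1.29 and 2.11 CPM in cortex and 19.6, 9.35 and 10.6 CPM in hippocampus (2.90) and the Wnt inhibitor Sfrp2 at 21.2, 33.1 and 34.3 CPM in cortex and 2.67, 2.8 and 2.56 CPM in hippocampus (-3.51). Kit, the receptor of the stem cell factor, fell (-2.57, adjusted p = 0.00722, and 0.0196 without replicate 2).

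Matrix genes (27 of 39 tested) had 2 rises and 2 falls at a median of 0.11. Postn, periostin, was at 0.261, 0.739 and 0.338 CPM in cortex and 9.78, 8.41 and 4.38 CPM in hippocampus and Spp1, osteopontin, at 20.6, 10.2 and 19.6 CPM in cortex and 0.889, 0.935 and 0 CPM in hippocampus, so each was near 0 in 1 region. Spon1, a secreted matrix protein, was at 149.9, 92.2 and 125 CPM in cortex and 39.1, 15 and 31.8 CPM in hippocampus (-2.12). In the calcium-binding list (17 of 17 tested, 1 up, 3 down, median -0.42) Calb2, calretinin, was at 149.9, 306 and 405 CPM in cortex and 74.6, 89.7 and 105 CPM in hippocampus (-1.60) and S100a10 at 92.7, 196 and 120.2 CPM in cortex and 34.7, 55.2 and 36.2 CPM in hippocampus (-1.67). Peptide and monoamine receptors (35 of 54 tested, median -0.28) had Htr7 up (1.57, adjusted p = 0.00688, and 0.0308 without replicate 1) and Tacr1 down. Of 26 cadherin genes tested of 30 (median 0.08), Cdh7 fell (-1.26, adjusted p = 0.00581, and 0.0381 without replicate 3), and its values, at 38.7, 73.7 and 77 CPM in cortex and 15.1, 42.1 and 25.6 CPM in hippocampus, overlapped.

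Lists of activity and of cell handling held 1 call. Of 17 activity-regulated genes tested among 26 listed 1 fell, Nptx2, while 13 had a value under 0, with a median over the list of -0.50. The slices had been kept in tetrodotoxin, APV and actinomycin D. Heat shock genes (17 of 20 tested, median 0.02), ribosomal protein genes (43 of 43, median -0.01) and genes of oxidative phosphorylation (40 of 40, median -0.18, with 33 under 0) had 0 calls each by edgeR.

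The Grin1-null libraries, which the choice of genes did not use, hold 2 pairs with 72 and 445 Sst-high cells in cortex and 62 and 564 in hippocampus. Grin1 was at 36.6 and 30.5 unscaled CPM in null cortex and 20.8 and 24.1 in null hippocampus, against 154, 250.3 and 228 in cortex and 126, 181 and 150.3 in hippocampus in WT. All 50 genes named for Sst-high cells had a log2 difference of the same sign in the null pairs. The share of all genes tested with the same sign is not given, so this count stands without its background. Aga was at 14.9 and 5.8 unscaled CPM in null cortex and 189 and 194 unscaled CPM in null hippocampus, Tenm2 at 32.5 and 25.2 unscaled CPM in null cortex and 173 and 128 unscaled CPM in null hippocampus, and Npy at 10747.5 and 34585 unscaled CPM in null cortex and 2792 and 5251 unscaled CPM in null hippocampus. In the null pairs their regions did not overlap either. Cells with a Chodl UMI or at least 2 Nos1 UMIs were 9.72 and 44% of Sst-high cells in null cortex. In null hippocampus they were 6.45 and 10.6%, and their part in the null values was not tested. For 0 of 12170 genes (0%) did the region difference itself differ between genotypes by edgeR, with 342 genes at an unadjusted p under 0.05. DESeq2 also called 0 (123 at an unadjusted p under 0.05). Without a filter on low counts edgeR called 7. There are 2 null pairs, and the smallest difference between genotypes that they can show was not measured.

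Over all interneurons together 253 of 12736 genes (1.99%) differed, 165 up and 88 down in hippocampus, and 235 had no overlap between regions (13.3% of all tested did). This count mixes levels per cell with the mix of classes, which cannot be told apart here. It was 7 with no replicate block, 105 without replicate 1 and 628 without replicate 2. Oligodendrocyte markers (10 of 10) summed to 226, 134 and 225 in cortex and 523, 976 and 596 in hippocampus unscaled CPM in these cells, and the list of oligodendrocyte precursors (7 of 7) to 20.9, 39.4 and 31.6 in cortex and 77.9, 142 and 104 in hippocampus, with Mag, Mobp, Cnp, Mbp, Vcan and Gpr17 called as higher. Of the list of the caudal eminence, Prox1, Adarb2 and Sncg were called as higher and Calb2 as lower, and of the cholinergic or striatal list Slc5a7 as lower. The part of these cells in the count was not tested. Among genes with at least 30 CPM in the higher region and no overlap, Nrp1, Aga and Nrp2 rose most, Aga by 3.52 on the log2 scale. Nrp1 (ENSMUSG00000025810, chromosome 8, 128358604 to 128503363) was at 4.0, 3.05 and 1.92 CPM in cortex and 45.9, 27.7 and 29 CPM in hippocampus (log2 difference 3.56 ± 0.24 (SE, n = 3 pairs), adjusted p = 0.000211), and Nrp2 at 4.5, 6.86 and 7.16 CPM in cortex and 72.1, 62.1 and 63 CPM in hippocampus (log2 difference 3.38 ± 0.23 (SE, n = 3 pairs), adjusted p = 0.000211). Lamp5, a marker of neurogliaform cells, was at 21.2, 18.7 and 17.9 CPM in cortex and 116, 93.3 and 226 CPM in hippocampus (2.84 on the log2 scale), while in Sst-high cells it had at most 2.72 unscaled CPM and was not tested. Cacna2d1, a calcium channel subunit, was at 15.2, 27 and 19.4 CPM in cortex and 76.3, 224 and 216 CPM in hippocampus (2.99). Cryab, a small heat shock protein, was at 50.7, 21.1 and 15.9 CPM in cortex and 278, 96.4 and 280 CPM in hippocampus (2.94), and oligodendrocyte-like cells held 4216, 2304 and 2081 in cortex and 3403, 1015 and 1588 in hippocampus unscaled CPM of it, so its part from them was not tested. Of the same kind of gene, the largest falls were those of Pdyn (-5.16), Prss23 (-3.94) and Chodl (-3.73), then Rprml (-3.03), Npnt (-2.78) and Pcp4 (-2.74).

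Below the Sst limit 227 of 11202 genes (2.03%) differed, 144 up and 83 down, 218 of them without overlap (15% of all tested). Of the 227, 226 moved 1 way in all 3 pairs. Pvalb-high cells were 839 of the 1898 cells below the limit in cortex and 135 of 1409 in hippocampus. For the genes of this set, this mix of classes and the levels per cell cannot be told apart. With no replicate block the count was 7, without replicate 2 it was 473, and DESeq2 gave 368. All 43 ribosomal protein genes had a value above 0 (median 0.22) and all 40 genes of oxidative phosphorylation one under 0 (median -0.41), with 0 calls in either list by edgeR, and the oligodendrocyte list (10 of 10) summed to 231, 108 and 275 in cortex and 556, 1168 and 714 in hippocampus unscaled CPM and that of the precursors (7 of 7) to 42.7, 86.4 and 60.2 in cortex and 127, 181 and 152 in hippocampus, with Cnp, Mbp, Vcan and Gpr17 called as higher. Prox1 and Sncg of the list of the caudal eminence were called as higher too. Their part in the count was not tested. Rxfp3 (ENSMUSG00000060735, chromosome 15, 11033717 to 11037991), the receptor of relaxin-3, was at 2.32, 3.5 and 1.37 CPM in cortex and 64.9, 49.2 and 47 CPM in hippocampus (log2 difference 4.54 ± 0.31 (SE, n = 3 pairs), adjusted p = 0.000262). Pvalb itself was at 1316, 1335 and 1370.1 CPM in cortex and 95.3, 601 and 135 CPM in hippocampus, where fewer Pvalb-high cells and less Pvalb per cell cannot be told apart (-2.77 on the log2 scale). Prss23, a secreted serine protease, was at 100.1, 58.5 and 92.7 CPM in cortex and 0, 4.04 and 4.64 CPM in hippocampus (-4.66), and Lrrc38, a subunit of BK potassium channels, at 40.8, 30.7 and 33.6 CPM in cortex and 4.15, 2.02 and 5.08 CPM in hippocampus (-3.10). Nog, which binds bone morphogenetic proteins, was at 62.6, 69.5 and 106 CPM in cortex and 9.67, 14.2 and 15.7 CPM in hippocampus (-2.60), and Lpl, lipoprotein lipase, at 73.7, 73.3 and 139.8 CPM in cortex and 15.9, 9.44 and 26.1 CPM in hippocampus (-2.49). For these 5 genes the hippocampal values lay under the cortical ones. Car8 was at 1.85, 3.5 and 2.5 CPM in cortex and 54.6, 12.1 and 28.3 CPM in hippocampus (3.33), a rise. Nos1 was higher in hippocampus here, at 49.9, 65.6 and 30.1 in cortex and 100.1, 201 and 188 in hippocampus unscaled CPM (1.80, adjusted p = 0.00558), where it was lower in Sst-high cells. The difference between these cell sets was not tested.

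Pvalb-high cells allow another class to be compared, on 138, 310 and 391 cortical and 11, 104 and 20 hippocampal cells, with 1174613, 1753927 and 4169200 in cortex and 87755, 374767 and 275898 in hippocampus summed UMIs. A few UMIs therefore set the values of hippocampal replicate 1. Here 140 of 8042 genes (1.74%) differed, 101 up (1.26%) and 39 down (0.485%), 120 of them without overlap, against 11.9% of all tested. With no replicate block 20 genes passed. Replicate 2 holds most of the hippocampal cells, and without it 5 genes passed. Without replicate 1 there were 66, DESeq2 gave 83, and sums without cells with Mbp or Slc17a7 gave 74 and thinned cells 20. The oligodendrocyte list (10 of 10) summed to 208, 93.5 and 164 in cortex and 365, 648 and 297 in hippocampus unscaled CPM in these cells, with Opalin at 0 in hippocampus. The list of precursors (7 of 7) was at 46, 39.9 and 18 in cortex and 342, 112 and 174 in hippocampus unscaled CPM. Most of it in hippocampus was C1ql1, called as higher, at 26.4, 27.9 and 10.8 in cortex and 342, 74.7 and 159 in hippocampus. Pdgfra was at 0 there. The paper gives C1ql1 for putative chandelier Pvalb cells, so the sum does not measure precursor RNA alone. The astrocyte list (8 of 8) was at 122, 100.3 and 60.2 in cortex and 148, 147 and 130.5 in hippocampus. Its called gene, Aldoc, higher in hippocampus, was at 85.1, 34.2 and 49.9 in cortex and 79.8, 115 and 130.5 in hippocampus. Aqp4, Gfap, Slc1a3, Gja1 and Gjb6 of this list were at 0 in hippocampus. Markers of other interneuron classes, chosen after their values were seen, went both ways in hippocampus. Higher there were Lamp5 at 2.55, 0.57 and 2.88 in cortex and 57, 26.7 and 32.6 in hippocampus unscaled CPM (4.07 on the log2 scale, adjusted p = 1.85e-05) and Sst, which is below the limit in each of these cells, at 103, 142 and 115 in cortex and 273, 387 and 257 in hippocampus. The list of the caudal eminence (8 of 8) was lower, at 994, 823 and 1292 in cortex and 342, 526 and 619.8 in hippocampus unscaled CPM, with Cck called as lower. The mix of cells above the Pvalb limit and the levels per cell cannot be told apart.

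Rxfp3 was at 0, 3.44 and 0.25 CPM in cortex and 78.7, 67.3 and 48 CPM in hippocampus, the hippocampal values resting on 7, 23 and 13 UMIs (log2 difference 5.64 ± 0.64 (SE, n = 3 pairs), adjusted p = 9.9e-11). Cortical Pvalb-high cells had almost none of it. Rgs8, a regulator of G protein signalling, was at 0, 1.72 and 1.75 CPM in cortex and 112, 55.6 and 48 CPM in hippocampus, from 10, 19 and 13 UMIs (log2 difference 5.35 ± 0.61 (SE, n = 3 pairs), adjusted p = 9.57e-11). Nrp1 was at 1.75, 2.29 and 0.25 CPM in cortex and 112, 49.8 and 29.6 CPM in hippocampus, from 10, 17 and 8 UMIs (log2 difference 5.38 ± 0.68 (SE, n = 3 pairs), adjusted p = 3.19e-09). Both were near 0 in cortex and had their highest value in hippocampal replicate 1. Wnt5a, a secreted Wnt ligand, was at 0.873, 6.87 and 1.0 CPM in cortex and 56.2, 84.9 and 40.7 CPM in hippocampus (4.39 on the log2 scale), and Cbln4, a synaptic organizer, at 0.873, 0.573 and 0.75 CPM in cortex and 45, 38 and 14.8 CPM in hippocampus (5.04). Shisa6, an auxiliary protein of AMPA receptors, was at 0, 1.72 and 2.75 CPM in cortex and 33.7, 32.2 and 44.4 CPM in hippocampus (4.30). All 6 genes lay higher in each hippocampal library than in any cortical one. Thinned, Rxfp3 was found in 0, 0.649 and 0% in cortex and 9.09, 3.0 and 10% in hippocampus of Pvalb-high cells and in 0, 0 and 0% in cortex and 0, 0 and 0.139% in hippocampus of oligodendrocyte-like cells (unthinned 0, 1.61 and 0.256% in cortex and 45.5, 18.3 and 35% in hippocampus, and 0, 0 and 0% in cortex and 0, 0.112 and 0.137% in hippocampus). Median UMIs of the Pvalb-high cells were 7960.5, 5207 and 9963 in cortex and 7813, 3103.5 and 14677.5 in hippocampus.

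Ostn, which encodes the secreted peptide osteocrin, was at 43.7, 30.4 and 61.5 CPM in cortex and 0, 0 and 0 CPM in hippocampus, so no fold is given. Sema3e was likewise at 21.8, 30.9 and 25.8 CPM in cortex and 0, 0 and 0 CPM in hippocampus. Rcn1, a calcium-binding protein of the endoplasmic reticulum, had 45.4, 38.9 and 60.3 CPM in cortex and 0, 0 and 3.7 CPM in hippocampus, with 0, 0 and 1 hippocampal UMIs. These 3 genes were found in each cortical library. Mgat4c, a glycosyltransferase, was at 66.4, 81.3 and 96 CPM in cortex and 0, 17.6 and 3.7 CPM in hippocampus (-3.13), Prss23 at 152, 92.8 and 142 CPM in cortex and 0, 14.6 and 25.9 CPM in hippocampus (-2.84) and Id4 at 41.9, 43.5 and 66.5 CPM in cortex and 11.2, 5.85 and 3.7 CPM in hippocampus (-3.15). Nrgn was at 249.8, 187 and 292 CPM in cortex and 0, 14.6 and 51.7 CPM in hippocampus (log2 difference -3.21 ± 0.34 (SE, n = 3 pairs), adjusted p = 8.09e-12). Of the 9 glutamatergic markers, 6, 7 and 3 were detected in the cortical sums, and those other than Nrgn and Slc17a6 were at 0 in hippocampus. In the cells that were not interneurons Nrgn was at 792, 1515 and 892 in cortex and 13.2, 30.5 and 233 in hippocampus unscaled CPM. Their part in the Pvalb-high value was not tested. Fgf13, which binds sodium channels, was at 112, 104 and 61.5 CPM in cortex and 866, 439 and 418 CPM in hippocampus (log2 difference 2.58 ± 0.22 (SE, n = 3 pairs), adjusted p = 3.5e-16). In the lists, neuropeptides had 13 tested of 25, 0 up and 4 down (median -0.52), with Tac1 at 1315, 1057 and 2089 CPM in cortex and 742, 500.5 and 758 CPM in hippocampus (-1.14) and Cartpt at 659, 636 and 1215 CPM in cortex and 315, 123 and 277 CPM in hippocampus (-1.92). Glutamate receptor genes had 25 tested of 37, 4 up and 0 down (median 0.43), among them Cacng3, an AMPA receptor auxiliary subunit, at 28.8, 22.9 and 12.8 CPM in cortex and 202, 67.3 and 70.2 CPM in hippocampus (2.24). The median over all genes tested was 0.01.

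**Figure D3:**
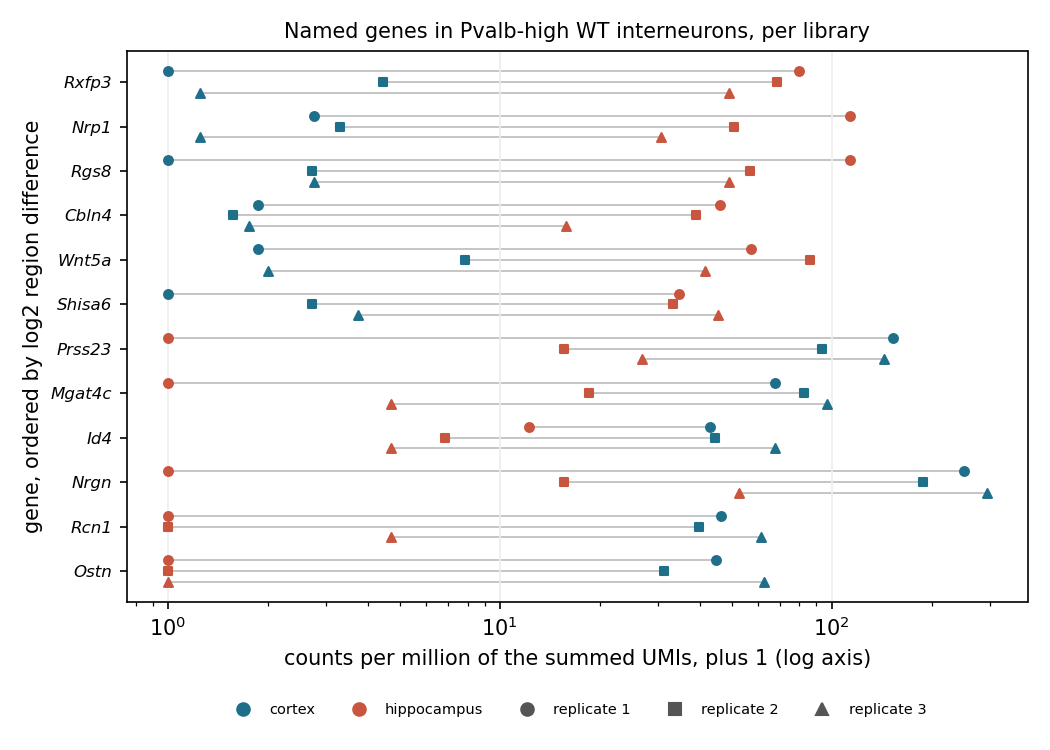
CPM plus 1 of the 6 genes with the largest rises and the 6 with the largest falls in Pvalb-high cells, among called genes with no overlap between the regions and a mean of at least 30 CPM in the higher region, on a log axis, for the 3 cortical (blue) and 3 hippocampal (red) WT libraries. Lines join the libraries of 1 replicate, and a point at 1 is a library with 0 UMIs of the gene.

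In Sst-high and Pvalb-high cells 26 called genes were the same, 15.6% of the Sst-high and 18.6% of the Pvalb-high calls, and each moved the same way in both. These shares are of all 167 Sst-high and 140 Pvalb-high calls, which include genes not tested in the other set. Of the 8002 genes tested in both sets, 88 (1.10%) were called in Sst-high and 127 (1.59%) in Pvalb-high cells. Of the same 8002 genes, 62.7% moved the same way in both. The 2 cell sets come from the same 6 libraries, so their agreement is not independent. The log2 difference of Nrp2 was 2.50 in Sst-high and 3.11 in Pvalb-high cells, that of Hapln1 3.05 in Sst-high and 1.81 in Pvalb-high cells, of Id2 2.01 in Sst-high and 1.19 in Pvalb-high cells, of Necab1 2.51 in Sst-high and 1.43 in Pvalb-high cells and of Nrp1 2.61 in Sst-high and 5.38 in Pvalb-high cells. Kcnip4 fell, at -1.91 in Sst-high and -1.51 in Pvalb-high cells, as did Id4, at -2.52 in Sst-high and -3.15 in Pvalb-high cells, and Etv1, at -2.29 in Sst-high and -2.23 in Pvalb-high cells. For Nrp2, Id2, Necab1, Nrp1 and Id4 the difference between the classes did not pass (adjusted p = 0.616, 0.0712, 0.188, 0.0151 and 0.706), while that of Hapln1 did (-1.38, adjusted p = 0.000563), its rise being larger in Sst-high cells.

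The region difference itself differed between Pvalb-high and Sst-high cells for 152 of 10514 genes (1.45%), 80 of them higher and 72 lower in the Pvalb-high cells. Without replicate 3 there were 98, without cells with Mbp or Slc17a7 110, and with thinned cells 22. With CPM scaled over both classes together, Sfrp2 was at 21.2, 33.8 and 35 CPM in cortex and 2.71, 2.87 and 2.62 CPM in hippocampus in Sst-high cells, and at 0.876, 3.91 and 2.21 CPM in cortex and 10.6, 16.4 and 7.15 CPM in hippocampus in Pvalb-high cells. It fell in the hippocampus in the former. In the latter it was not tested by itself, and the hippocampal values rest on 1, 6 and 2 UMIs (interaction 5.72 ± 0.84, SE, adjusted p = 0.000112). Sfrp1, its relative, was at 19.1, 73.9 and 19.5 CPM in cortex and 15.4, 21 and 4.48 CPM in hippocampus in Sst-high cells, where the regions overlapped, and at 1.75, 0.558 and 0.981 CPM in cortex and 21.2, 16.4 and 17.9 CPM in hippocampus in Pvalb-high cells (interaction 5.43, adjusted p = 0.000189). Sema5a, a semaphorin, was at 2.09, 6.79 and 5.68 CPM in cortex and 13.6, 26.8 and 23.5 CPM in hippocampus in Sst-high cells and at 21, 63.1 and 62.3 CPM in cortex and 21.2, 30.1 and 3.57 CPM in hippocampus in Pvalb-high cells (interaction -3.74, adjusted p = 2.13e-06). It rose without overlap in the former and overlapped in the latter.

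Rxfp3 and Rgs8 were chosen for this comparison after their values were seen. In Sst-high cells Rxfp3 was at 14.9, 11.7 and 14.7 CPM in cortex and 27.1, 22 and 14.6 CPM in hippocampus and Rgs8 at 43.2, 51.9 and 38.6 CPM in cortex and 33.4, 63.1 and 53.4 CPM in hippocampus, with overlapping regions. The interaction was 5.28 ± 0.61 (SE, adjusted p = 2.41e-06) for Rxfp3 and 4.96 ± 0.52 (SE, adjusted p = 7.88e-07) for Rgs8. Cortical Sst-high cells thus held both genes at levels that cortical Pvalb-high cells did not reach. Tac1, chosen in the same way, was at 26.7, 71.3 and 100 CPM in cortex and 202, 74.6 and 416 CPM in hippocampus in Sst-high cells and fell in Pvalb-high cells (interaction -2.94, adjusted p = 1.13e-06). Tenm2, chosen likewise, rose in Sst-high cells and did not pass in Pvalb-high cells (1.15, adjusted p = 0.0137; interaction -1.32, adjusted p = 0.000937).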

How the data were processed

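The authors made the UMI counts with Cell Ranger (version 2.1.1 in the methods, 3.0.2 in the matrix headers) on mm10 after adding 4 kb to gene ends, and the deposited matrices hold raw counts of 43348 genes. Libraries were told apart by barcode suffix and matched to replicates by the cell numbers in the methods. UMI counts of the chosen cells were summed per library. No doublet caller was run beyond the doublet gate of the sort. Values are for the depths in the files, which set their precision.

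Sums were tested with edgeR 4.0.16 in R 4.3.3 (quasi-likelihood test after TMM scaling and filterByExpr, with Benjamini-Hochberg adjustment over all genes tested), with the replicate as a block and hippocampus minus cortex as the effect. A gene passed where the adjusted p was under 0.01 and the natural-log change 0.1 or more, as in the paper. Classes were compared by an interaction term with the library as a block, and genotypes by one with the pair as a block. Standard errors are the log2 value divided by the root of the F statistic. Class shares were compared by exact paired permutation. Unscaled CPM are UMIs per 1000000 without TMM scaling. Gad1, Gad2, Mog and Sst, which chose the cells, and Pvalb in Pvalb-high cells were left in the fits and not among the genes that could be named. Sst is counted among the genes called in Pvalb-high cells, and its test is not reported. The procedure was tested on simulated data. Python 3.11.15 with numpy 2.4.6, pandas 2.3.3, scipy 1.17.1 and matplotlib 3.10.9 did the rest. Gene coordinates are from GENCODE vM21.

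The members and the gene lists were chosen with earlier results of these data known. The genes named are those past the thresholds with no overlap between regions and a mean of at least 30 CPM in the higher region, up to the 12 largest each way in Sst-high cells and the 6 largest each way in the other sets, the 4 largest each way of an interaction, and up to 4 called genes per list. Other genes are said to be chosen after their values were seen.

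Alternatives were no replicate block, DESeq2 1.42.0, library-size scaling, no filter on low counts, an adjusted p of 0.05, Sst limits of 1000 and 10000 CPM, at least 1000 genes and under 10% mitochondrial UMIs per cell, mitochondrial genes left out, cells thinned to 1000 UMIs, and each replicate left out. After the data were seen, cells with a Tomato UMI alone, cells without Mbp and Slc17a7, and Sst-high cells without Chodl and Nos1 were added. Some genes, and 1 alternative that was listed at the start and left out cells with markers of other types, are not reported here. The sums without Mbp and Slc17a7 do not stand in for it. The ribosome-tagged RNA and the imaging of the study were not analysed.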

Additional observations from a re-analysis of the deposited data

Results flagged for a closer look

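For 152 genes the difference between hippocampus and cortex itself differed between Pvalb-high and Sst-high cells by an interaction test in edgeR (adjusted p under 0.01). The 4 largest each way, as Pvalb-high minus Sst-high on the log2 scale, were Gulp1 at 9.83, St6galnac2 at 6.70, Sfrp2 at 5.72 and Sfrp1 at 5.43, and Farp1 at -8.77, Sln at -5.72, Kitl at -4.18 and Sema5a at -3.74. Gulp1 had 0 UMIs in the 3 hippocampal Sst-high sums and Farp1 0 UMIs in the 3 hippocampal Pvalb-high sums, so their fitted values depend on the prior count and are no bounds. The hippocampal Pvalb-high sums come from 11, 104 and 20 cells, and no cause was tested.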

How the results depend on the processing

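Counts of called genes depended on the replicate block. With no block, edgeR called 6 genes in Sst-high cells (167 with it), 7 in all interneurons (253), 7 below the Sst limit (227) and 20 in Pvalb-high cells (140). Without a filter on low counts the calls were 488 (Sst-high), 762 (all), 831 (below the limit), 267 (between classes, 152 in the reported fit) and 7 (between genotypes, 0 in the reported fit). At an adjusted p of 0.05 they were 389, 545, 617, 221 (Pvalb-high) and 262 (between classes). Without cells that hold Mbp or Slc17a7, an alternative chosen after seeing the data, 138 passed in Sst-high cells, 74 in Pvalb-high cells and 110 between classes. Cells thinned to 1000 UMIs gave 52 in Sst-high cells, 145 in all, 20 in Pvalb-high cells and 22 between classes, with fewer UMIs behind each sum. DESeq2 gave 368 below the limit and 83 in Pvalb-high cells, and an Sst limit of 1000 gave 381 below it. Where no construction is named, the cause was not tested.

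Leaving out 1 replicate at a time gave 196 to 236 genes in Sst-high cells, 105 to 628 in all, 175 to 473 below the limit, 5 to 122 in Pvalb-high cells, 98 to 173 between classes and 0 to 7 between genotypes. The class shares were lower in hippocampus under each alternative run, with paired differences of -24.2 to -19.1 points (Sst-high) and -15.8 to -12.3 points (Pvalb-high).

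Of 772 values of the 50 genes named in Sst-high cells over the alternatives, 689 passed in the same direction, 82 kept the direction but did not pass (46 of them with no block), and 1 reversed. That was Nos1, at 0.91 (adjusted p = 0.225) without Sst-high cells that hold Chodl or at least 2 Nos1 UMIs, which that choice of cells itself brings about. It and the sums of cells with a Tomato UMI, where all 50 passed, were chosen after seeing the data. The 50 genes were chosen as passing in the reported fit. The 50 values at an adjusted p of 0.05 come from that same fit, so their passing was fixed in advance.

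These results rest on 3 pairs of pooled libraries, the pairing rests on cell numbers in the methods, and Xist differed between the regions of replicate 3 and Ddx3y between those of replicate 1. Region cannot be told apart from the dissection and sorting of each tissue. Classes were set by 1 gene per cell, so mixed classes are included. Hippocampal Pvalb-high sums come from 11, 104 and 20 cells, and the smallest difference that they can show was not measured. Oligodendrocyte RNA in the sums was higher in hippocampus and was not removed.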
